A study of Mus musculus with 2 samples.

Results

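The genes described here are the erythropoietin receptor Epor, its kinase Jak2, the transcription factors Stat5a and Stat5b, and 6 genes switched on through them: Cish, Socs2, Socs3, Pim1, Bcl2l1 and Fam132b. They were chosen by name, and every non-control probe whose transcript accession belongs to one of them was taken, which gave 15 probes of 10 genes among 20655 named genes on the array. A gene counted as measured when the scanner software flagged a probe of it as well above background on both arrays. This held for 9 of the 10 members, among 10223 measured genes in all, and Fam132b was the member it did not hold for.

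Erythropoietin is the hormone that keeps red cell precursors alive and dividing. It binds paired receptor chains, the attached JAK2 molecules phosphorylate each other and the receptor, and STAT5 docks there, is phosphorylated, and moves to the nucleus to bind DNA. Among the genes it switches on are inhibitors that shut the signal off (Cish and the Socs genes), survival genes, and erythroferrone, the product of Fam132b, a hormone of erythroblasts that lowers hepcidin in the liver and so frees iron. In the fetal liver this pathway is needed for definitive red cell formation.

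SoNar is a fluorescent protein sensor of the cytosolic NADH to NAD+ ratio. Mouse fetal liver blood cells, at stage E13.5, were sorted on the sensor's fluorescence ratio between its 2 excitation wavelengths. The SoNar-high group is 1 array, with the strain labelled C57BL/6, and the SoNar-low group is 1 array, with the strain labelled C57BL. No genotype beyond the sensor and no treatment is labelled, and neither the promoter that drives the sensor nor the number of embryos is given in the sources used here. The comparison addresses which transcripts differ between cells with a high and a low sensor ratio. With 1 array per group there is no replicate error and no p-value, so the values below describe these 2 arrays, whose number limits the precision.

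Promoter sequences show which members carry the letters that STAT5 is known to bind next to their transcription start. RefSeq promoter windows (GRCm38.p6, 250 bases before to 50 after a start) were matched by symbol for 9 of the 10 members, as 14 windows. No window of Socs2 was searched. The STAT motif TTCNNNGAA, which reads the same on both strands, was found in 2 of the 14 windows, 1 each of Cish and Socs3. Of all 32851 windows of that length, 8.30% hold it. Cish has 2 copies close together, and 0.457% of all windows hold more than 1. The motif GATAA, searched on both strands and bound by GATA factors such as the erythroid factor GATA1, was found in 3 of the 14 windows, those of Epor and Cish and 1 of the 3 of Bcl2l1, beside 25.4% of all windows. The motifs do not overlap. The stretches that hold them are printed 5′ to 3′ on the gene's strand, with the matched letters in capitals. They are Cish at chr9:107296409-107296678 (plus strand, 250 bases before the start and the first 20 from it), Socs3 at chr11:117969367-117969566 (minus strand, 200 bases before the start), Epor at chr9:21963577-21963696 (minus strand, 120 bases before the start) and Bcl2l1 at chr2:152828490-152828609 (minus strand, 120 bases before 1 of its starts).
Cish: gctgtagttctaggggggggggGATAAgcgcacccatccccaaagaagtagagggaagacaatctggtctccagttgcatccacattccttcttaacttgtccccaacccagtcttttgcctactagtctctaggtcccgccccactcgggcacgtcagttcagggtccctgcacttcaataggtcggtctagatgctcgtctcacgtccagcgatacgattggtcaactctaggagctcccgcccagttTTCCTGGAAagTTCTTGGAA
Socs3: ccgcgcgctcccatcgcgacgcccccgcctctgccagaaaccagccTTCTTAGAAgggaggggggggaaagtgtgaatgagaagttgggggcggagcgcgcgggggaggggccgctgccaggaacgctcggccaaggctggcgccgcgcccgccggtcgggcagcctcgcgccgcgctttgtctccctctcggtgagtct
Epor: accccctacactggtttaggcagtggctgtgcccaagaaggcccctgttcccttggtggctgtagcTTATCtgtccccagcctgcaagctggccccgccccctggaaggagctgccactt
Bcl2l1: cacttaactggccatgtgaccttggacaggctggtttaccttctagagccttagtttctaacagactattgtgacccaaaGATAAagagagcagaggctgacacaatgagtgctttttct
In Cish, the capitals near the left end are GATAA and those at the right end are both STAT motifs, the first of which begins at the start base itself. In Socs3 they are the STAT motif, which begins 154 bases before the start. In Epor they are GATAA read on the other strand, 54 to 50 bases before the start, and in Bcl2l1 GATAA, 40 to 36 bases before it. A match describes these letters only and is no measurement of binding.

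All values are processed signals in the scanner's array units, or log2 of them after the array's 75th percentile was subtracted (186.5 units in SoNar-high and 222.2 in SoNar-low cells). A difference is SoNar-high minus SoNar-low on that log2 scale, within 1 probe, so that a positive value is higher in SoNar-high cells. Of 43020 non-control spots, 49.4% in SoNar-high and 42.4% in SoNar-low cells were well above background, and none was saturated. The spot-to-spot error comes from 213 measured probes that the array carries 10 times each: the median SD of the log2 difference of a spot pair was 0.148, and 95 percent of these probes had an SD of at most 0.308. That error leaves out embryos, sorts and labelling reactions.

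Among the 9 measured members, Socs2 was at least 2-fold lower in SoNar-high cells and the other 8 were within 2-fold, with Epor, at 1.93-fold higher, close to that size. Of all measured genes 9.72% were at least 2-fold different, 5.28% higher (540) and 4.44% lower (454), so 1 of 9 members is a share near the background. At 1.5-fold, 1 member was higher (Epor), beside 13.8% of all measured genes, and 2 were lower (Socs2 and Stat5a), beside 17.7%, so 3 of 9 in either direction stand beside 31.5%. The median of the members was -0.17, which is the value of Stat5b, whose probes disagree, and that of all measured genes was -0.08. As scaled here 3 members had a positive and 6 a negative difference, beside 55.8% of all measured genes below 0, but the signs of Stat5b and Socs3 depended on the scaling, and with the 75th percentile of probes well above background 5 were positive and 4 negative. Other scalings changed this balance over all genes. Scaling to the 75th percentile of probes well above background gave 817 higher against 227 lower and shifted the all-gene median by 0.18, and loess normalization gave 649 against 347 and shifted it by 0.10.

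**Figure D1:**
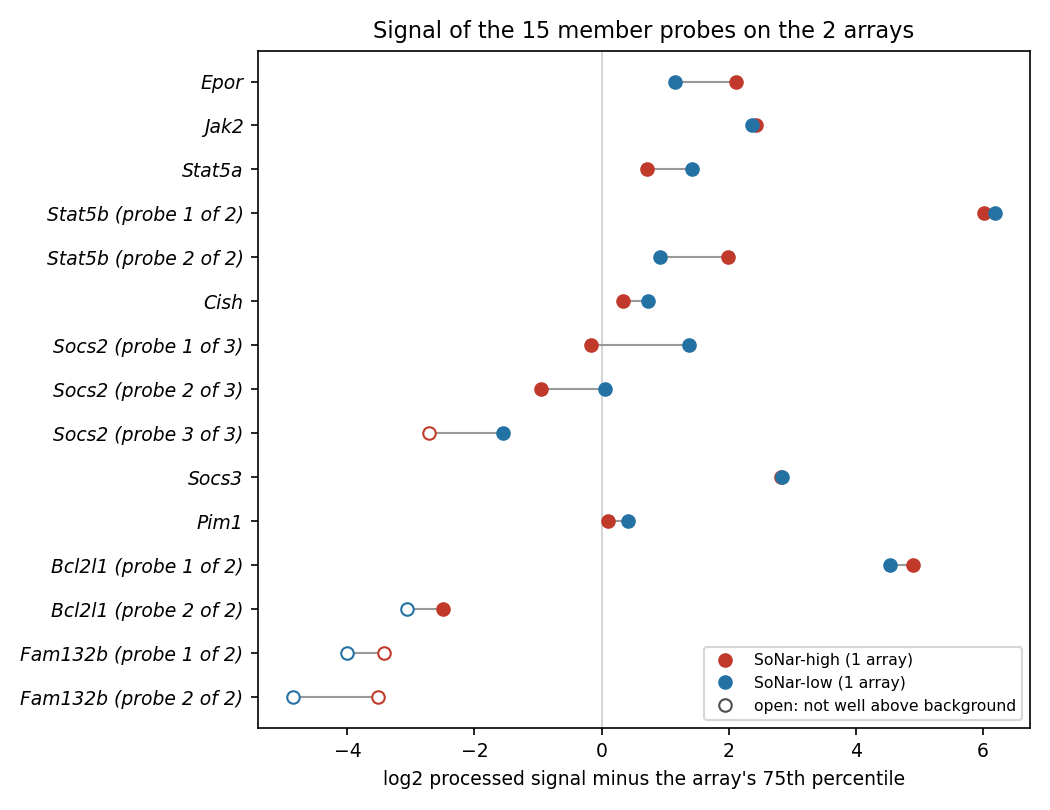
Scaled log2 signal (x axis, log2 processed signal minus the 75th percentile of the array) of each of the 15 member probes, 1 row per probe, on the SoNar-high (red) and SoNar-low (blue) array. Open circles are not well above background. Red lies right of blue for Epor, and left of it for Stat5a, Cish, Pim1 and all 3 probes of Socs2, while the 2 probes of Stat5b lie in opposite orders.

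The receptor gene Epor was 1.93-fold higher in SoNar-high cells. The single Epor probe had a processed signal of 805.4 in SoNar-high and 497.7 in SoNar-low cells. Its scaled levels were 2.11 and 1.16, and its difference was 0.95. Of the 10223 measured genes, 619 had a larger positive difference. Under the 11 other settings that give a value it lay between 0.70 (normexp background correction) and 1.14 (loess), with no change of sign, and it was at least 2-fold under 5 of them. Not all of these settings could change it. For a bright gene with 1 probe printed once, the dim-probe filters, the median over probes and keeping outlier spots only return the reported value. This holds for Epor, Jak2, Stat5a, Cish, Socs3 and Pim1.

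Jak2, the kinase bound to the receptor's intracellular part, had nearly equal scaled signals. Its probe read 1012 units in SoNar-high and 1153 units in SoNar-low cells, with scaled levels of 2.44 and 2.38. The difference of 0.07 is smaller than the spot SD, and it ranged from 0.02 to 0.28 over the other settings. The difference of Epor exceeded that of Jak2 by 0.88, a quantity in which any constant scaling of an array cancels.

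The STAT5 factors are a pair of close relatives encoded by neighbouring genes. Stat5a had 307.4 units in SoNar-high and 595.9 units in SoNar-low cells. Its difference of -0.70 (1.63-fold lower) lay between -0.75 and -0.52 under the 11 other settings, some of which could not change it. Epor and Stat5a thus went in opposite directions, by 1.65 apart, and by 1.35 to 1.68 under the other settings.

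The probes of Stat5b gave opposite differences. The bright probe, which stands for the gene here because it has the highest mean signal, read 12109 units in SoNar-high and 16227 units in SoNar-low cells, a difference of -0.17. The other probe read 742.6 and 420.7 units, a difference of 1.07, or 2.10-fold higher. The first ranged from -0.41 to 0.01 and the other from 1.07 to 1.43 over 8 settings of signal and scaling, so their order held while the sign of the first turned under the 75th percentile of probes well above background. Among 2021 genes represented by 2 or more measured probes, 96 (4.75%) showed a distance between probes at least as large as the 1.24 of Stat5b, and the median distance was 0.41. No direction is given for Stat5b as a gene. Both probes carry the same transcript accession, and the files used here do not hold the probe sequences.

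Of the feedback inhibitors, Socs2 differed most. Socs2 encodes an SH2-domain protein that binds activated cytokine receptors, best known for restraining growth hormone signalling. Its first probe was printed 10 times: the spots ran from 142.2 to 175.1 units, with a median of 167.3, on the SoNar-high array, and from 533.5 to 650.1 units, with a median of 571.2, on the SoNar-low array. The ranges do not overlap. On the log2 scale the spot SD was 0.07 on the SoNar-high array (8 spots, with 2 marked as outliers left out) and 0.09 on the SoNar-low array (10 spots). The 8 spot pairs without outlier marks had a mean difference of -1.53 ± 0.11 (SD over spots of 1 probe, not over samples). With each array's spots averaged first, the difference of the gene was -1.54 (2.90-fold lower), and 64 of the 10223 measured genes had a larger negative one.

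The other Socs2 probes pointed the same way. The second read 96.0 units in SoNar-high and 230.9 units in SoNar-low cells, a difference of -1.01 (-1.07 to -0.64 over 8 settings of signal and scaling). The third read 28.4 units in SoNar-high cells, not well above background, and 76.2 units in SoNar-low cells, where it was at least 2.12-fold higher. Such a bound, here and for the genes below, holds only for the signal and scaling used here. It sets the bright value against the lowest signal that passed the background flag on the other array. If the dim probe's own signal is higher, that signal is used instead. The difference of this dim probe was negative under the same 8 settings but ran from -1.52 to -0.33, smallest after normexp. The gene's difference stayed at least 2-fold lower under all 11 settings, from -1.58 to -1.19, with the smallest size after normexp. Before Feature Extraction's correction of the position-dependent signal (its multiplicative detrend), the 10 spots ran from 428.9 to 697.4 units on the SoNar-low array, with an SD of 0.27 (log2), and from 125.2 to 182.1 units on the SoNar-high array, with an SD of 0.19. These ranges do not overlap either.

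**Figure D2:**
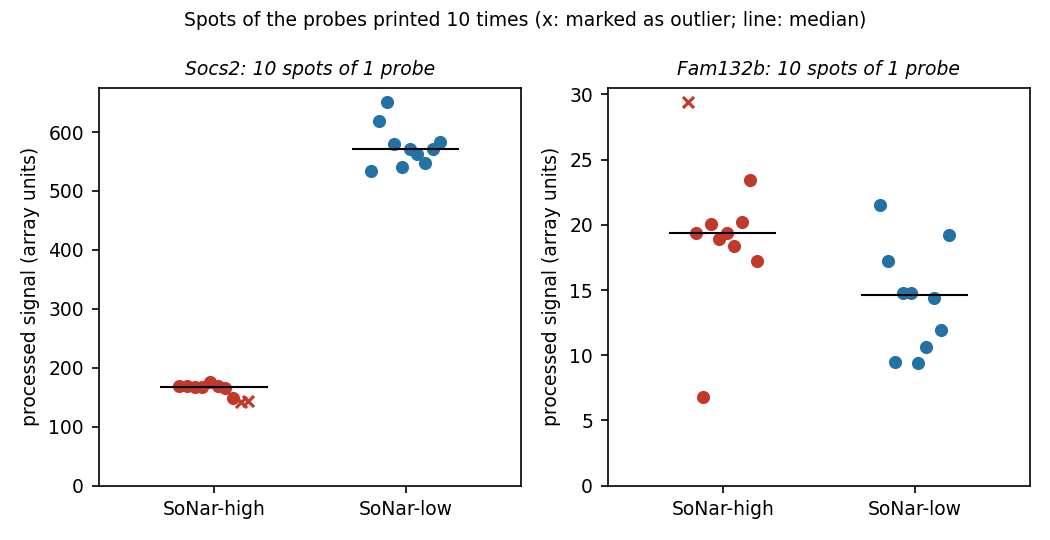
Processed signal (y axis, array units, from 0) of each of the 10 spots of 1 Socs2 probe (left) and 1 Fam132b probe (right) on both arrays. Lines are medians and crosses are spots marked as outliers by the scanner software. The Socs2 spots lie below 176 units on the SoNar-high and above 533 units on the SoNar-low array, while the Fam132b spots overlap and none is well above background.

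Cish, the founding member of this inhibitor family, which competes for docking sites on the receptor, had 235.6 units in SoNar-high and 370.0 units in SoNar-low cells. Its difference of -0.40 (1.32-fold lower) ranged from -0.41 to -0.22 and kept its sign. Socs3, which inhibits JAK kinases and binds the receptor, had 1328 and 1596 units. Its difference of -0.01 is far smaller than the spot SD, and its sign turned positive under 5 of 6 other scalings and background corrections, up to 0.20. Socs2 differed from Cish by 1.14 and from Socs3 by 1.52, scaling aside.

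Pim1, a serine/threonine kinase that promotes survival and proliferation, had 199.4 units in SoNar-high and 295.9 units in SoNar-low cells. The difference was -0.32, and between -0.46 and -0.14 under the other settings. Bcl2l1, which encodes the survival protein BCL-XL of maturing erythroblasts, had 5611 and 5159 units on its bright probe, a difference of 0.37 (0.28 to 0.59 over the other settings). Its dim probe passed the background flag in SoNar-high cells (33.2 units) but not in SoNar-low cells (26.7 units), which gives a bound of at least 1.07-fold higher. Bcl2l1 and Pim1 were 0.69 apart, and 0.61 to 0.88 under the other settings.

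Fam132b gave no measured value. Its first probe, printed 10 times, had a median of 19.4 units on the SoNar-high array (6.8 to 29.4) and of 14.6 units on the SoNar-low array (9.4 to 21.5), and 0 of the 10 spots were well above background on either array. The second probe, with 16.3 and 7.7 units, was likewise not well above background, and no fold is given.

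**Figure D3:**
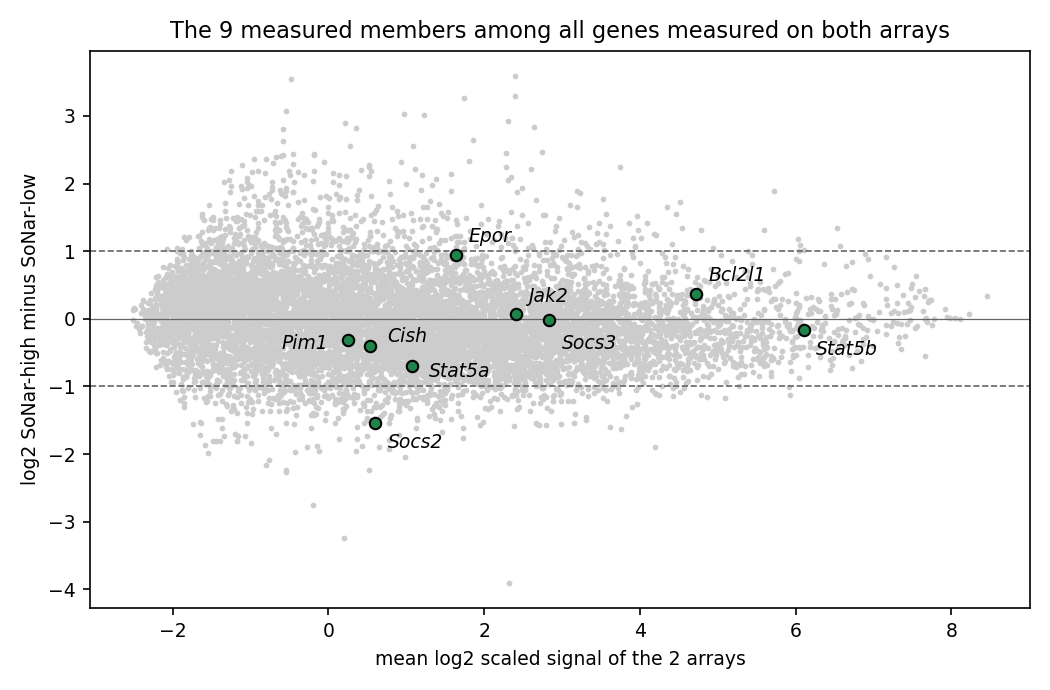
Difference between the arrays (y axis, log2 SoNar-high minus SoNar-low) against the mean scaled log2 signal (x axis) for all 10223 measured genes (grey, 1 point per gene) and the 9 measured members (green). Dashed lines mark 2-fold. Socs2 (-1.54) lies below the lower line, Epor (0.95) just under the upper one, and the other members between the lines.

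By role, 1 receptor gene had a positive difference and Stat5a a negative one, and of the 5 measured target genes Socs2, Cish and Pim1 had a negative difference and Bcl2l1 a positive one at every setting, while the sign of Socs3 depended on the setting. The median of the targets was -0.32. Epor and Socs2 were farthest apart, by 2.48 (5.59-fold), and by 1.88 to 2.57 under the other settings. The targets thus had no common direction on these 2 arrays: Socs3 had a difference near 0, Cish and Pim1 were modestly lower, Socs2 was lower beyond 2-fold, and Bcl2l1 was modestly higher. The lower and upper quartiles of all measured genes were -0.447 and 0.317. Socs3, Cish and Pim1 lay between these quartiles and Bcl2l1 just above them, so only Socs2 stood well outside the spread of most genes.

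**Figure D4:**
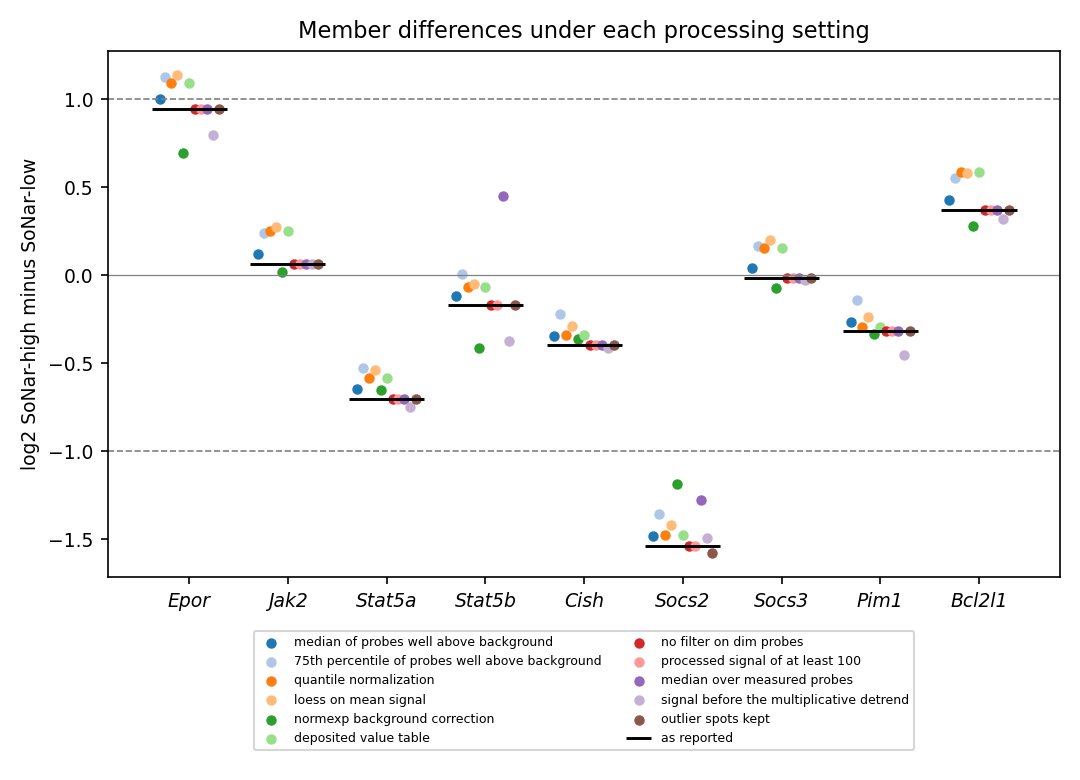
Difference of each measured member (y axis, log2 SoNar-high minus SoNar-low) as reported (black line) and under each of 11 other processing settings (coloured points). Dashed lines mark 2-fold. Socs2 is below the lower line at every setting (-1.58 to -1.19), Epor crosses the upper line at 5 of them, and Stat5b and Socs3 change sign.

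Other genes of the pathway were mostly within 2-fold, as were most measured genes, of which 9.72% were at least 2-fold different. Of 20 partners and regulators of the receptor's signal, 16 were measured, all within 2-fold, with a median of 0.14. Cbl, the ubiquitin ligase that marks active receptor complexes for degradation, had the largest difference, 0.92 (745.5 against 468.3 units). Plcg1, a phospholipase recruited by active receptors, had 0.65, at dim signals of 57.1 and 43.3 units. The phosphatase gene Inpp5d (SHIP1) had -0.50, and Kit, the stem cell factor receptor that acts together with the erythropoietin receptor, -0.15. Epo itself was not well above background on either array. Gab1, an adaptor, was well above background in SoNar-high cells only, at least 2.06-fold higher as scaled here.

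None of the 6 measured genes among 8 other JAK and STAT genes reached 2-fold (median 0.24). Tyk2 had 0.76 and Jak1 0.67, both kinases that serve other cytokine receptors. Of 13 other SOCS, Pim and PIAS genes and JAK-STAT phosphatases, 10 were measured, none at 2-fold (median -0.06). Ptpn1, a phosphatase that acts on JAK2, had 0.77, and Pias2, a SUMO ligase, had 0.55. The other SOCS genes measured, Socs1, Socs4, Socs5, Socs6 and Socs7, lay between -0.51 (Socs7) and 0.09 (Socs5), whereas Socs2 had -1.54. Socs7 read 401.3 units in SoNar-high and 681.9 units in SoNar-low cells. Socs1, Socs4, Socs5 and Socs6 were dim, with no signal above 91.9 units, which limits this comparison.

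Receptors of the same structural class as Epor differed in both directions. Of 14, 12 were measured, with a median of 0.26, 2 at least 2-fold lower and none at least 2-fold higher. The lower ones were Il7r, the interleukin-7 receptor chain of lymphoid cells (-1.25, with 127.8 against 362.0 units), and Il3ra, the interleukin-3 receptor chain of myeloid progenitors (-1.15, with 141.3 against 374.5 units). The highest of the 12 was Il6st, the shared chain of the interleukin-6 family, at 0.87 with dim signals of 130.3 and 84.8 units, beside the 0.95 of Epor.

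Of 13 other genes reported to respond to erythropoietin or STAT5, 10 were measured (median 0.10). Osm (oncostatin M), a cytokine gene induced by STAT5, was the 1 at least 2-fold higher, at 1.18 (180.8 against 95.1 units). The 9 others were within 2-fold, between the -0.67 of Trib3 and the 0.44 of Ccnd3. Of 13 BCL2 family genes, 10 were measured, all within 2-fold, and 8 had a negative difference (median -0.28). Bcl2, the founding survival gene, had -0.64 and the cell death gene Bbc3 -0.63. The 2 positive ones were Bid (0.38), close to the 0.37 of Bcl2l1, and Bnip3l, which acts in clearing mitochondria from red cells. Bnip3l had 0.44 on the probe that stands for it, but its 4 measured probes ran from 0.02 to 0.44. Mcl1, counted as negative (-0.25), had another measured probe at 0.51. Of 9 genes of hepcidin and its regulators, 3 were measured: Twsg1, a second erythroblast product proposed to act on hepcidin, had -0.91, Hfe 0.61 and Tfr2 0.28. Both hepcidin genes, Hamp and Hamp2, were not well above background on either array.

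**Figure D5:**
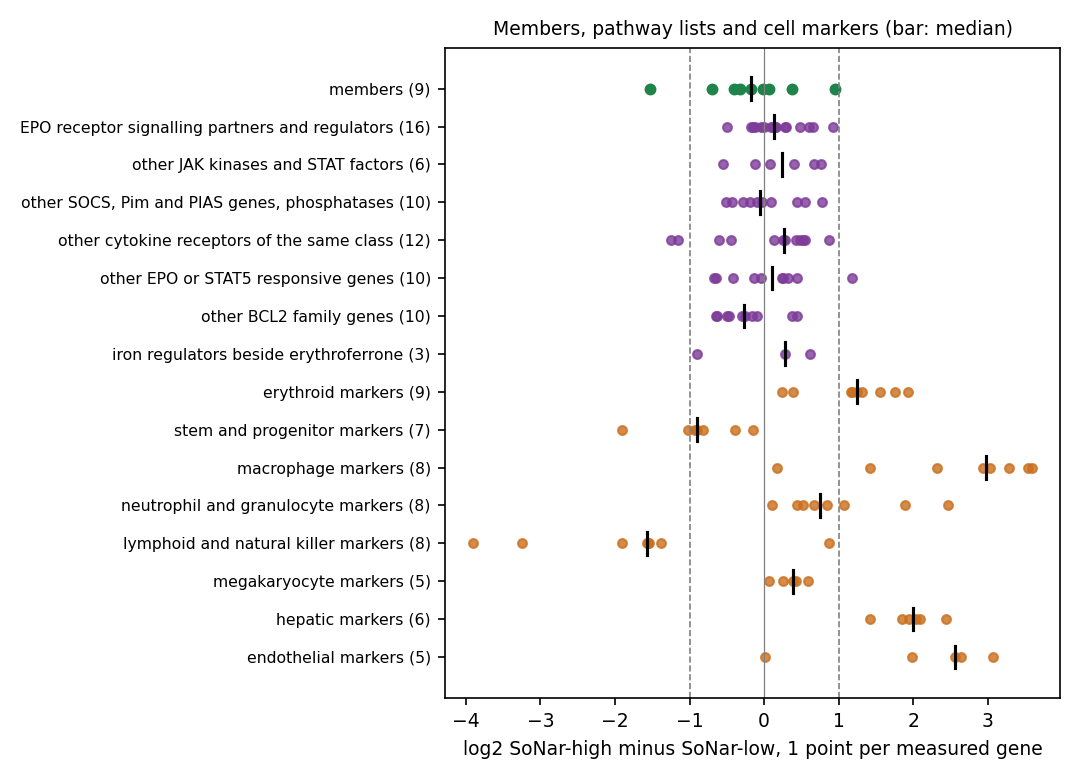
Difference of each measured gene (x axis, log2 SoNar-high minus SoNar-low, 1 point per gene, number of genes in brackets) for the members (green), the pathway lists (purple) and the cell markers (orange). Bars are medians and dashed lines mark 2-fold. The pathway medians lie between -0.28 and 0.28, whereas the marker medians run from -1.57 (lymphoid and natural killer) to 2.98 (macrophage).

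Markers of several cell types moved with the sort. All 9 erythroid markers analysed were measured. On the probe that stands for each gene all had a positive difference, 7 of them at least 2-fold (median 1.24). Their summed scaled signal was 88.8 in SoNar-high and 39.9 in SoNar-low cells. Epb42 (1.93), Ermap (1.76), Slc4a1 (1.55) and Klf1 (1.31) were the largest, and Gata1 (0.38) and the transferrin receptor gene Tfrc (0.25) the smallest. Epor, at 0.95, lay between these. The other measured probe of Tfrc had -0.175, and the 3 measured probes of Ermap ran from 0.49 to 1.76. Stem and progenitor markers were lower, 2 of 7 at least 2-fold, and had a median of -0.91 and sums of 49.1 and 89.2 (Angpt1 -1.90 and Cd34 -1.02). The other measured probe of Cd34 had -0.39, within 2-fold. Lymphoid and natural killer markers had 7 of 8 lower by 2-fold or more (median -1.57) and sums of 18.1 and 76.7 (Gzma -3.90, Klrd1 -3.24, Vpreb1 -1.90 and Blnk -1.58). The remaining one, Cd3e, went the other way, at 0.87 (139.5 units in SoNar-high and 91.0 in SoNar-low cells).

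Macrophage markers had 7 of 8 measured genes at least 2-fold higher (median 2.98, sums of 100.3 and 38.3), led by Marco (3.59), C1qa (3.54), C1qc (3.29) and Vcam1 (3.03), with Timd4 at least 8.07-fold higher and Mertk not well above background. The measured gene within 2-fold was Csf1r, at 0.175, whose 3 measured probes ran from -0.088 to 1.017. Neutrophil and granulocyte markers had 3 of 8 at least 2-fold higher (median 0.75, sums of 1102 and 713.5), among them Mmp8 (2.46), Lcn2 (1.89) and Ltf (1.07). Hepatic markers were well above background in both populations for 6 of 8 genes, all 6 at least 2-fold higher (median 1.99, sums of 71.1 and 21.5; Fgg 2.44, Serpina1a 2.09, Fgb 2.04 and Ahsg 1.94), with Ttr at least 2.32-fold higher and Apoa1 not well above background. Endothelial markers had 4 of 5 at least 2-fold higher (median 2.56, sums of 20.1 and 4.55), namely Cdh5 (3.07), Stab2 (2.64), Lyve1 (2.56) and Kdr (1.98). The other measured probe of Kdr had 0.74, within 2-fold, and Pecam1 had 0.01. All 5 megakaryocyte markers analysed were within 2-fold (median 0.39, sums of 14.4 and 12.1), with Ppbp at 0.59 and Gp1ba at 0.42. The part of these shifts in the differences of Epor, Stat5a, Socs2 and the other members was not tested, and in a sorted population fewer cells of a type and less RNA per cell cannot be told apart.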

How the data were processed

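Total RNA of sorted fetal liver blood cells was hybridised, with Cy3 as the only dye, to 2 Agilent arrays, 1 per group, per the labels' protocols. Spot intensities were deposited by the authors as output of Feature Extraction, which had subtracted background and detrended the processed signal; the file headers name version 11.0.1.1, the submitters' processing notes 9.1. The deposited value table holds log2 values, with equal medians (4.80) in both columns. How they were normalized is not stated in the labels or headers. The correlation of its differences with the scanner's was 0.917 across 39420 probes, which sets its direction, and it served as an alternative. Its member differences equalled those after quantile normalization or nearly so (Epor 1.094 and Socs2 -1.475 in both). The value table and quantile normalization are therefore not separate checks.

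Control spots and outlier spots (225 on the SoNar-high, 135 on the SoNar-low array) were left out, log2 processed signals were scaled to each array's 75th percentile, and spots of a probe were averaged. The percentile itself was taken over all non-control spots, outlier spots included. Probes were named through transcript accessions in a RefSeq gene table (GRCm38.p6; the array design refers to mm9), which named 27229 of 39420 probes. The 12191 unnamed probes were not used here. The brightest measured probe stands for a gene. No test was possible with 1 array per group, so differences were read by a size of 2-fold, and the counting was tested on simulated data. Alternatives were other scalings, normexp (limma 3.58.1, offset 50, on the median spot signal, since the files used here hold no mean), the value table, other filters on dim probes, the median over probes and sizes of 1.5-fold and 3-fold. The signal before the multiplicative detrend and keeping outlier spots were added after seeing the data. A shift beyond 0.148 counted as a move.

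The members and lists were chosen with earlier results of these data known. All members are named. In each other list the members at least 2-fold different, at most the 4 largest, are named, or else the 2 largest, and further genes were named after their values were seen. A few listed genes are not reported here and were left out of the list counts.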

Additional observations from a re-analysis of the deposited data

How the results depend on the processing

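No paired analysis was possible because each group has 1 array. The number of members at least 2-fold higher, 0 as reported, was 1 (Epor) when scaled to the median or to the 75th percentile of probes well above background, after quantile normalization or loess, in the deposited value table and at 1.5-fold. The number at least 2-fold lower, 1 as reported (Socs2), was 2 at 1.5-fold and 0 at 3-fold, and 1 under the other settings.

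The 540 genes at least 2-fold higher became 817 with the 75th percentile of probes well above background, 251 after normexp, 2476 with no filter on dim probes, 329 with processed signals of at least 100, 1408 at 1.5-fold and 146 at 3-fold. The 454 lower genes became 227 with that percentile, 257 after normexp, 659 with no filter on dim probes, 314 with processed signals of at least 100, 1809 at 1.5-fold and 48 at 3-fold. The cause was not tested, other than that a filter changes the genes counted and a threshold the size. Of 198 member differences and medians recomputed, 43 moved by more than the spot SD of 0.148. Some settings could not move a member with 1 probe printed once, so part of the unmoved values was fixed in advance. Only the difference of Socs2 was at least 2-fold as reported, and it kept its sign. The sign changed for Stat5b under 2 settings, for Socs3 under 5, for the median of the members under 1 and for that of all measured genes under 3. The medians of some lists near 0 also changed sign. Stat5b turned positive (0.45) with the median over its probes. The median of the members ranged from -0.37 to 0.01. Dim probes are limited by the background: Fam132b, the third Socs2 probe and the second Bcl2l1 probe were not measured on both arrays.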
